A study of Mus musculus with 14 samples.

Results

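The genes described here are 10 acid-base genes that mark the intercalated cells of the kidney's collecting duct. They were chosen by symbol, for their known role, from the 24411 genes in the deposited count tables. They are the transcription factor Foxi1, the V-ATPase subunits Atp6v1b1, Atp6v1g3, Atp6v0a4 and Atp6v0d2, the anion exchangers Slc4a1, Slc26a4 and Slc4a9, and the ammonia channels Rhcg and Rhbg. All 10 passed the filter on low counts and were among the 14300 genes tested.

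Intercalated cells set the final acid content of the urine. Type A cells pump protons into the tubule lumen with an apical V-ATPase, a proton pump with a cytosolic V1 sector that splits ATP and a membrane V0 sector that carries the protons, and return bicarbonate to the blood through the exchanger AE1 (Slc4a1). Type B cells secrete bicarbonate through pendrin (Slc26a4) and carry the exchanger AE4 (Slc4a9) on the basolateral side. Foxi1 is the forkhead factor needed for intercalated cells to form, and several V-ATPase subunits have kidney forms alongside forms found in nearly all cells.

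Whole kidneys of male C57/B6 mice aged 8 weeks were sequenced as bulk RNA, with 4 libraries at day 0, 5 at day 1 and 5 at day 3 after renal ischemia/reperfusion injury (IRI), to follow gene expression over the first days of acute kidney injury. The day 0 libraries are named as controls, and whether these mice had sham surgery is not given in the sources used here. No group carried a transgene or a treatment besides IRI as far as the labels state, and they do not say whether each library came from a separate mouse, so that p-values measure the spread between libraries. The number in the deposited library name has 1 digit in all day 0 libraries, in day 1 replicates 3, 4 and 5 and in day 3 replicates 4 and 5, and 3 digits in the others. What the format marks is not stated, so it is handled here as a candidate batch rather than a condition, and since day 0 holds only 1-digit libraries, 3-digit libraries differ from it in both day and format.

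Reads on genes numbered 12485579 to 20476979 per library. Markers of the labelled tissue were abundant, with uromodulin (Umod, thick ascending limb) at a mean of 5769 CPM at day 0 and the proximal tubule genes Slc34a1 and Lrp2 at 4776 and 3247 CPM. CPM are reads per 1000000 reads on genes after TMM scaling, and gene positions are those of GENCODE M21 on mm10. A change was called at an adjusted p (Benjamini-Hochberg over all genes tested) under 0.05 in edgeR's quasi-likelihood test. In bulk RNA, fewer cells of a type and less RNA per cell cannot be told apart.

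The start regions of the members were searched for the forkhead core, since one member is itself a forkhead factor. The RefSeq table of mouse GRCm38.p6 held windows of 300 bases, from 250 before to 50 after the start of the gene, for 6 of the 10 members (Foxi1, Atp6v1b1, Atp6v1g3, Atp6v0a4, Slc26a4 and Rhcg). TGTTTA and the longer TGTTTAC, which contains it, were searched on both strands. TGTTTA was found in 1 of the 6 windows, against 13.4% of all 32851 windows of this length, and TGTTTAC in the same 1 window, against 3.65% of all. That window belonged to Atp6v1b1, where the match begins at position -98 from the start. A match to letters is a description and not a binding site. The window of Atp6v1b1 (chr6:83742767-83743066, + strand) is shown for its match, and those of Rhcg (chr7:79617608-79617907, - strand) and Slc26a4 (chr12:31559935-31560234, - strand) are shown as the start regions of a gene that fell after IRI and of one that did not pass the test on either day. Each is written 5′ to 3′ on the strand of its gene, with the match to TGTTTAC in capitals.
Atp6v1b1: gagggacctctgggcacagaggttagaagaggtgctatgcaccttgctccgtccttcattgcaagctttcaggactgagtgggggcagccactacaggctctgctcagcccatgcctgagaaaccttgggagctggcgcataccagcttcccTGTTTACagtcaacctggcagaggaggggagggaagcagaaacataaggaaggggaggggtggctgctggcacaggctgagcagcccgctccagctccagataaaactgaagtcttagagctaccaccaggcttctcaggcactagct
Rhcg: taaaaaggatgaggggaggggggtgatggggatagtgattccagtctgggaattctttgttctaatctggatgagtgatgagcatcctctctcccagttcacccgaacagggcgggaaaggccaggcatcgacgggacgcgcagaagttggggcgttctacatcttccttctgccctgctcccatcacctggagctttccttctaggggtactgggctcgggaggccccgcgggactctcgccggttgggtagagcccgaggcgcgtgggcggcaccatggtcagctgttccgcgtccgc
Slc26a4: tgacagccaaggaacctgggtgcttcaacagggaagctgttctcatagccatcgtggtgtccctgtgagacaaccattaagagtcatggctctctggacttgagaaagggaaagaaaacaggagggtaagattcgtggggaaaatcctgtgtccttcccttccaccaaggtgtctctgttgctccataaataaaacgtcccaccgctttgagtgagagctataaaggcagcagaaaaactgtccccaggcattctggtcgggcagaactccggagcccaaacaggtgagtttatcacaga

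At day 0 the 10 genes spanned a range of levels. Per kb of exon (GENCODE M21), Atp6v0a4 had the highest level at 60.0 ± 8.52 CPM per kb (SD, n = 4), followed by Rhcg at 41.3 ± 1.15, Atp6v1g3 at 32.8 ± 3.41 and Slc26a4 at 27.6 ± 2.34. Rhbg (20.5 ± 1.56), Atp6v1b1 (19.7 ± 1.52), Foxi1 (15.1 ± 1.66), Atp6v0d2 (13.6 ± 0.966) and Slc4a1 (11.9 ± 1.49) formed the middle of the order, and Slc4a9 was lowest at 8.11 ± 0.756 CPM per kb. In this order the libraries of Atp6v1g3 and Slc26a4 overlapped, as did those of Rhbg and Atp6v1b1, of Foxi1 and Atp6v0d2, and of Atp6v0d2 and Slc4a1, while the other neighbours did not. At day 1 and day 3 the lowest level was that of Slc4a1, at 1.49 ± 0.382 and 1.24 ± 1.05 CPM per kb (n = 5 each), in both cases without overlap with the gene above it.

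After IRI the type A exchanger Slc4a1 and the ammonia channel Rhcg fell most among the 10 genes, on both days. At day 1 against day 0, 4 of the 10 genes were lower (Slc4a1, Rhcg, Atp6v1b1 and Rhbg) and 0 were higher, where 18.7% of all genes tested were lower and 23.3% higher (42.1% changed in either direction). At day 3 against day 0, 5 were lower (Slc4a1, Rhcg, Rhbg, Foxi1 and Slc4a9) and 0 higher, where 13.8% of all genes were lower and 19.5% higher (33.3% changed in either direction). The median log2 fold change of the 10 genes was -0.49 at day 1 and -0.78 at day 3, against 0.01 and 0.05 over all genes tested. The count of 0 higher genes was the same at an unadjusted p under 0.05 in edgeR's test and at an adjusted p under 0.05 in DESeq2's Wald test, on both days. It was not the same within the 1-digit libraries: with only these used for the later days, Slc26a4 (log2 fold change 0.86, adjusted p = 9.37e-05), Slc4a9 (0.55, 0.00268) and Atp6v1g3 (0.49, 0.0337) were called higher at day 1 and Atp6v0d2 (0.67, 0.0136) at day 3 in edgeR's test. With the format as a term in the fit, Slc26a4 was called higher at day 1 (0.64, adjusted p = 0.0420, edgeR's test). Both comparisons share the day 0 libraries.

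**Figure D1:**
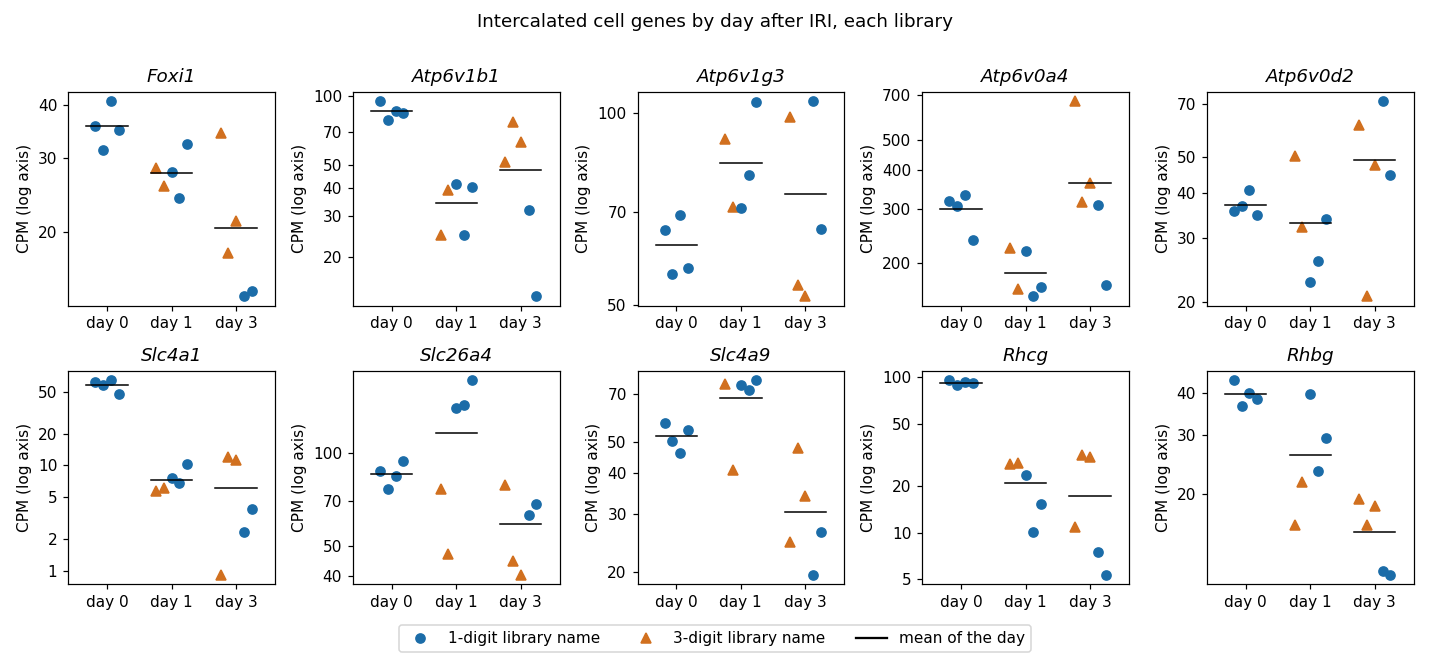
CPM of each gene (log axis, a scale of its own in each panel) in every library at day 0, day 1 and day 3 after IRI, with circles for 1-digit and triangles for 3-digit library names and a line at the mean of the day. Slc4a1 and Rhcg stand at 47.8 and 89.6 CPM or more in all day 0 libraries and at 12.0 and 31.5 CPM or less in all later ones.

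**Figure D2:**
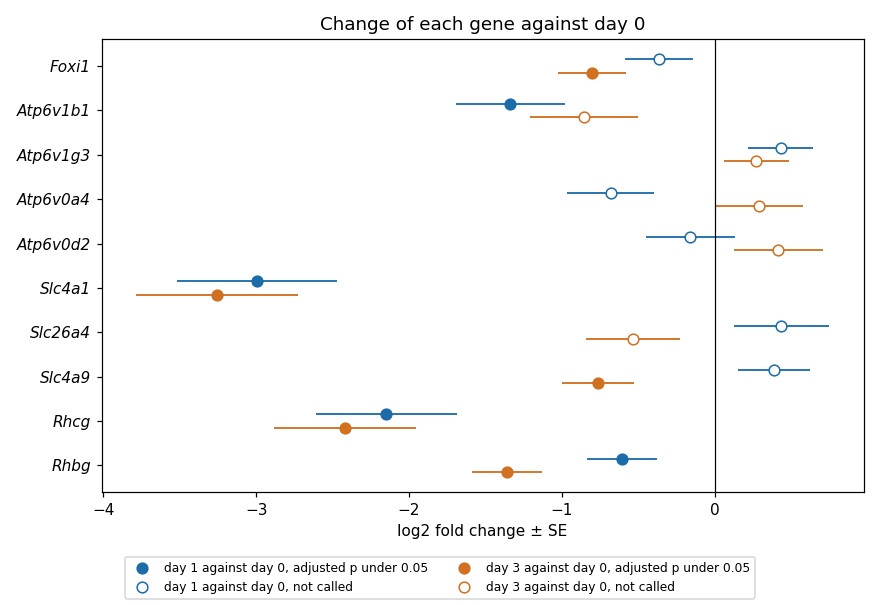
Log2 fold change ± SE of each gene at day 1 and at day 3 against day 0 (edgeR's quasi-likelihood fit, 14 libraries), with filled points where the adjusted p was under 0.05. The 4 filled points at day 1 and the 5 at day 3 all lie below 0.

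Foxi1 (chr11:34204338-34208089, - strand) was called lower at day 3. Foxi1 had 35.7, 31.2, 40.7 and 34.8 CPM in day 0 replicates 1 to 4, 28.3, 25.7, 27.7, 24.1 and 32.3 CPM in day 1 replicates 1 to 5 and 34.3, 17.8, 21.3, 14.1 and 14.5 CPM in day 3 replicates 1 to 5. All day 3 libraries but replicate 1 lay below every day 0 library. At day 1 its log2 fold change of -0.37 ± 0.22 (SE) did not pass the test (adjusted p = 0.193, edgeR's quasi-likelihood test). With only the libraries of the 2 days fitted, the day 1 value was -0.35 with an adjusted p of 0.0404 in edgeR's test. At day 3 Foxi1 was 1.74-fold lower than at day 0, with a log2 fold change of -0.80 ± 0.22 and an adjusted p of 0.0138 in edgeR's test. The fall was called with any 1 library left out, and missed the threshold when only 3-digit libraries of the later days were used (log2 fold change -0.54, adjusted p = 0.0710 in edgeR's test).

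Of the kidney forms of the V-ATPase subunits, 1 of 4 was called against day 0 in edgeR's fit with 1 coefficient per day, Atp6v1b1 at day 1. Of all genes, 42.1% changed at day 1 and 33.3% at day 3 in that fit. Of the V1 sector, Atp6v1b1 (chr6:83742990-83758855, + strand), the B1 form of the nucleotide-binding B subunit and a gene of inherited distal renal tubular acidosis with deafness, fell at day 1. In order of replicate number, Atp6v1b1 stood at 95.1, 79.2, 86.6 and 84.3 CPM at day 0, at 24.9, 39.1, 41.7, 24.9 and 40.2 CPM at day 1 and at 51.7, 77.6, 63.5, 32.0 and 13.5 CPM at day 3. All later libraries lay below all day 0 libraries, with the lowest level in day 3 replicate 5. The gene was 2.53-fold lower at day 1 (log2 fold change -1.34 ± 0.36, adjusted p = 0.00866, edgeR's quasi-likelihood test). At day 3 the log2 fold change was -0.85 ± 0.35 with an adjusted p of 0.0758 in the same edgeR test, and DESeq2's Wald test gave -0.87 with an adjusted p of 0.0477.

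Atp6v1g3 (chr1:138273738-138289462, + strand) encodes the kidney form of the G subunit of the peripheral stalk. The libraries gave 65.6, 55.9, 69.1 and 57.2 CPM at day 0, 91.2, 71.4, 71.0, 80.1 and 104 CPM at day 1 and 98.5, 53.7, 51.6, 104 and 65.7 CPM at day 3, by replicate number. Its 5 day 1 libraries lay above all 4 day 0 libraries, and its day 3 libraries overlapped them. The log2 fold change was 0.43 ± 0.21 at day 1 and 0.27 ± 0.21 at day 3, and neither passed the test (adjusted p = 0.114 and 0.334, edgeR's quasi-likelihood test). With only the libraries of the 2 days fitted, the day 1 value was 0.45 with an adjusted p of 0.0278 in edgeR's test.

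Of the V0 sector, Atp6v0a4 (chr6:38048483-38124586, - strand) encodes the a4 form of the large membrane subunit, which the proximal tubule also makes. In order of replicate number, Atp6v0a4 stood at 318, 306, 333 and 237 CPM at day 0, at 223, 165, 218, 157 and 168 CPM at day 1 and at 669, 315, 362, 308 and 169 CPM at day 3. At day 1 all 5 libraries lay below all day 0 libraries, and at day 3 replicate 1 was the highest of all 14 libraries and replicate 5 lay below every day 0 library. The log2 fold change was -0.68 ± 0.29 at day 1 (adjusted p = 0.0671) and 0.29 ± 0.29 at day 3 (adjusted p = 0.454) in edgeR's quasi-likelihood test. With only the libraries of the 2 days fitted, the day 1 value was -0.67 with an adjusted p of 0.00476 in edgeR's test. The GENCODE M21 annotation places D630045J12Rik over the start of this gene on the same strand, so reads of the shared part may have been left out.

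Atp6v0d2 (chr4:19876841-19922605, - strand) encodes the d2 form of the subunit that links the V0 sector to the rotor, and osteoclasts and some macrophages make it as well. The libraries gave 35.5, 36.7, 40.6 and 34.7 CPM at day 0, 50.4, 32.1, 22.6, 25.9 and 33.9 CPM at day 1 and 61.5, 20.8, 47.5, 71.3 and 44.7 CPM at day 3, by replicate number. The 3 days overlapped, and both the lowest and the highest of the 14 libraries were at day 3. Its log2 fold change was -0.16 ± 0.29 at day 1 and 0.41 ± 0.29 at day 3 (adjusted p = 0.676 and 0.283, edgeR's quasi-likelihood test). Without day 3 replicate 2, Atp6v0d2 was called higher at day 3 against day 0 (0.61, adjusted p = 0.0428) and against day 1 (0.77, adjusted p = 0.0275, edgeR's test). Of 14 tested genes of a macrophage and osteoclast list of 15, 3 were higher and 1 lower at day 1, and 7 were higher and 1 lower at day 3. Of all genes, 23.3% were higher and 18.7% lower at day 1, and 19.5% and 13.8% at day 3. In a fit with 1 group for each day and format, 3 of the 14 were higher and 4 lower in 1-digit day 1 libraries (28.9% and 29.6% of all genes). In 3-digit day 1 libraries 4 were higher and 2 lower (22.6% and 19%). At day 3, 5 were higher and 3 lower in 1-digit (28.6% and 25.1%) and 10 higher and 1 lower in 3-digit libraries (19.1% and 13.3%). The list's summed level was 199.98 to 297 CPM at day 0, 155 to 209 CPM at day 1 and 176 to 558 CPM at day 3, and its part in the level of Atp6v0d2 was not tested.

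Slc4a1 (chr11:102348824-102366203, - strand) had the largest change of the 10 genes on both days. Slc4a1 had 62.1, 58.3, 64.2 and 47.8 CPM in day 0 replicates 1 to 4, 5.66, 6.09, 7.63, 6.80 and 10.4 CPM in day 1 replicates 1 to 5 and 0.916, 12.0, 11.1, 2.35 and 3.82 CPM in day 3 replicates 1 to 5. No later library came near the day 0 range, and the lowest value, in day 3 replicate 1, rests on 18 reads (95% exact Poisson interval 10.7 to 28.4 reads, which covers counting error only). Slc4a1 was 7.97-fold lower at day 1 (log2 fold change -2.995 ± 0.52, adjusted p = 0.000707) and 9.55-fold lower at day 3 (-3.26 ± 0.53, adjusted p = 0.000607) in edgeR's quasi-likelihood test. Both calls were kept with any 1 library left out, with log2 fold changes between -3.15 and -2.94 at day 1 and between -3.66 and -2.97 at day 3.

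Red blood cells also make AE1, so the erythroid genes are given beside this fall. Of 10 erythroid genes, 3 could be tested and 0 of them changed on either day over all libraries in edgeR's quasi-likelihood test, with 0 at an unadjusted p under 0.05 on both days. In the fit by day and format 1 of the 3 was higher in 1-digit day 1 libraries, where 28.9% of all genes were. In 3-digit day 1 libraries and in either format at day 3, 0 were called. Alas2, the erythroid enzyme of heme synthesis, had a mean of 11.01 ± 3.39 CPM at day 0, 13.9 ± 9.06 at day 1 and 7.47 ± 5.85 at day 3. At day 1 Alas2 had 19.5 ± 6.72 CPM in 1-digit and 5.45 ± 0.842 CPM in 3-digit libraries. Epb42 had means of 1.02, 0.596 and 1.35 CPM and Ank1 of 0.134, 0.561 and 0.418 CPM on the 3 days. The list's summed level was 9.55 to 16.4 CPM at day 0, 5.77 to 28.4 CPM at day 1 and 2.03 to 19.0 CPM at day 3. The 4 adult globin genes Hba-a1, Hba-a2, Hbb-bs and Hbb-bt were listed at 0 reads in all libraries, in counts that hold only reads mapped to 1 place and 1 gene, so they give no measure of blood. The part of red blood cells in the level of Slc4a1 was not tested.

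Slc26a4 (chr12:31519827-31559969, - strand), the apical exchanger of type B cells and a gene of Pendred syndrome, was not called against day 0 on either day in edgeR's fit with 1 coefficient per day. With the format as a further term Slc26a4 was called higher at day 1, as given above. In order of replicate number, Slc26a4 stood at 87.8, 76.7, 84.6 and 94.2 CPM at day 0, at 76.5, 47.1, 141, 143 and 173 CPM at day 1 and at 79.1, 44.8, 40.4, 63.0 and 68.5 CPM at day 3. At day 1 replicates 3, 4 and 5 lay above every day 0 library, while replicates 1 and 2 lay below all of them, replicate 1 by less than 1 CPM. The log2 fold change was 0.43 ± 0.31 at day 1 and -0.54 ± 0.31 at day 3, and neither passed the test (adjusted p = 0.271 and 0.191, edgeR's quasi-likelihood test). Without day 1 replicate 2 the day 1 value was 0.63 with an adjusted p of 0.0471 in edgeR's test. At day 3 Slc26a4 was called lower with only the 2 days fitted (-0.55, adjusted p = 0.0457), with only the 1-digit libraries of the later days (-0.37, adjusted p = 0.0323) and in 3-digit libraries in the fit by day and format (-0.65, adjusted p = 0.0377, edgeR's test).

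Slc4a9, on chromosome 18, encodes the basolateral exchanger of type B cells. The libraries gave 57.2, 50.3, 46.1 and 54.2 CPM at day 0, 74.8, 41.1, 74.4, 71.7 and 77.1 CPM at day 1 and 24.7, 47.8, 34.2, 19.6 and 26.6 CPM at day 3, by replicate number. At day 1 all libraries but replicate 2 stood above the day 0 range, and at day 3 all but replicate 2 stood below it. At day 1 the log2 fold change of 0.38 ± 0.24 did not pass the test (adjusted p = 0.200, edgeR's quasi-likelihood test). At day 3 the gene was 1.70-fold lower than at day 0 (-0.76 ± 0.23, adjusted p = 0.0225, edgeR's test). In 3-digit libraries Slc4a9 was not called at day 3 (-0.55, adjusted p = 0.112 with only these used for the later days and 0.0774 in the fit by day and format, edgeR's test). Leaving out day 0 replicate 1 or 4 or day 3 replicate 1 or 4 lost the call over all libraries, with adjusted p up to 0.0614, and total counts without TMM gave 0.0554 in edgeR's test.

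Rhcg (chr7:79593363-79617657, - strand) encodes the ammonia channel found on the apical and basolateral sides of intercalated and principal cells. Rhcg had 95.5, 89.6, 93.1 and 91.0 CPM in day 0 replicates 1 to 4, 27.4, 27.8, 23.3, 10.1 and 15.3 CPM in day 1 replicates 1 to 5 and 10.8, 31.5, 30.6, 7.53 and 5.36 CPM in day 3 replicates 1 to 5. The day 0 libraries stood within a narrow range, and every later library had less than the lowest of them. Rhcg was 4.43-fold lower at day 1 (log2 fold change -2.15 ± 0.46, adjusted p = 0.00255) and 5.35-fold lower at day 3 (-2.42 ± 0.46, adjusted p = 0.00174) in edgeR's quasi-likelihood test. Both calls were kept with any 1 library left out. GENCODE M21 lists Gm45170 inside this gene and Gm38392 over Rhbg on the same strand, so that reads of the shared parts of either may have been left out.

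Rhbg (chr3:88242874-88254709, - strand) encodes the basolateral ammonia channel. In order of replicate number, Rhbg stood at 43.8, 36.7, 40.1 and 38.5 CPM at day 0, at 16.2, 21.8, 39.7, 23.5 and 29.4 CPM at day 1 and at 19.4, 16.2, 18.5, 11.8 and 11.5 CPM at day 3. All day 3 libraries lay below all day 0 libraries, while day 1 replicate 3 lay within the day 0 range. Rhbg was 1.52-fold lower at day 1 (-0.61 ± 0.23, adjusted p = 0.0452) and 2.56-fold lower at day 3 (-1.36 ± 0.23, adjusted p = 0.000804) in edgeR's quasi-likelihood test. The day 3 call was kept with any 1 library left out. At day 1 Rhbg was at -0.36 in 1-digit libraries (adjusted p = 0.0759) and at -1.06 in 3-digit libraries (adjusted p = 0.00109), both from edgeR by day and format, and the adjusted p was 0.0505 with only the 2 days fitted. The day 1 call was lost in 8 of 14 such fits, those without any day 0 library or without day 1 replicate 1, 2, 4 or 5, with adjusted p up to 0.107.

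Groups without overlap in CPM were found for 5 of the 10 genes at day 1 (Slc4a1, Rhcg, Atp6v1b1, Atp6v0a4 and Atp6v1g3) and for 4 at day 3 (Slc4a1, Rhcg, Atp6v1b1 and Rhbg). Over all genes tested the share was 42% at day 1 and 33.4% at day 3. The difference in direction between Atp6v1g3, higher in all 5 day 1 libraries, and the other 4 genes was not tested beyond the pairs below.

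Between day 1 and day 3 both type B exchangers fell over all libraries and in the 1-digit ones, while neither was called in the 3-digit ones. At day 3 against day 1, 3 of the 10 genes were lower (Slc4a9, Slc26a4 and Rhbg) and 1 was higher (Atp6v0a4), where 7.39% of all genes were lower and 8.52% higher (15.9% changed in either direction). A fall was not particular to the type B exchangers. In 1-digit libraries Foxi1 (-0.97, adjusted p = 0.00907) and Rhcg (-1.32, adjusted p = 0.0284) were also lower, and Atp6v0d2 was higher (1.08, adjusted p = 0.0318, edgeR's fit by day and format). Of 8 genes of the distal convoluted and connecting tubule, 5 were lower and 0 higher over all libraries. Of 20 further intercalated cell genes 1 was lower and 0 higher, and of 9 principal cell genes 0 were called. Slc4a9 was 2.21-fold lower at day 3 than at day 1 (log2 fold change -1.15 ± 0.22, adjusted p = 0.00637, edgeR's quasi-likelihood test), a call kept with any 1 library left out. Its value was -1.69 in 1-digit libraries (adjusted p = 0.00102) and -0.70 in 3-digit libraries (adjusted p = 0.0900, edgeR's fit by day and format). Slc26a4 fell by 0.97 ± 0.29 on the log2 scale and Rhbg by 0.75 ± 0.22 (adjusted p = 0.0383 and 0.0329, edgeR's test). In 1-digit libraries Slc26a4 was at -1.21 and Rhbg at -1.40 (adjusted p = 0.00497 and 0.000593), and in 3-digit libraries at -0.17 and -0.081 (adjusted p = 0.692 and 0.821, edgeR's test). The formats are mixed in different shares on the 2 days. In edgeR's test the change from day 1 to day 3 was not called different between formats for Slc4a9 or Slc26a4 (adjusted p of the difference = 0.0898 and 0.0696), while it was for Rhbg (adjusted p = 0.00841). DESeq2's Wald test called the difference of Slc26a4 as well (adjusted p = 0.0324). Atp6v0a4 rose by 0.97 ± 0.27 with an adjusted p of 0.0284 in edgeR's test. It was at 0.40 in 1-digit libraries (adjusted p = 0.350) and at 1.21 in 3-digit libraries (adjusted p = 0.0298, edgeR's test), and the difference between formats did not pass (adjusted p = 0.238). The calls of Slc26a4, Rhbg and Atp6v0a4 were lost in 9, 4 and 4 of 14 fits without 1 library, and with only these 2 days fitted the 3 adjusted p were 0.0947, 0.0907 and 0.0766 in edgeR's test. No member had day 1 and day 3 libraries that did not overlap (0 of 10, against 7.61% of all genes).

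Ratios of 2 genes within a library do not depend on how libraries are scaled, and were compared between days for 6 pairs in 18 comparisons by exact permutation tests, two-sided, adjusted over all 18. The log2 ratio of the type B exchanger Slc26a4 to the type A exchanger Slc4a1 was 0.57 ± 0.28 at day 0, 3.87 ± 0.57 at day 1 and 3.80 ± 1.94 at day 3. It was higher in all 5 day 1 libraries than in any day 0 library, by 3.30 on the log2 scale in the mean (exact permutation p = 0.00794, adjusted p = 0.0476, n = 4 and 5). The p of 0.00794 is the smallest that this design allows. At day 3 the ratio was above all day 0 libraries in all 5, by 3.24, with an adjusted p of 0.0857 (exact permutation p = 0.0238), and it ranged from 1.86 in replicate 3 to 6.39 in replicate 1.

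The kidney forms Atp6v1b1 and Atp6v0a4 fell at day 1 relative to the forms found in most cells. The log2 ratio of Atp6v1b1 to Atp6v1b2 was -2.21 ± 0.14 at day 0 and -4.15 ± 0.66 at day 1, a difference of -1.94 (exact permutation p = 0.00794, adjusted p = 0.0476). The log2 ratio of Atp6v0a4 to Atp6v0a1 was 2.17 ± 0.35 at day 0 and 0.63 ± 0.36 at day 1, a difference of -1.54 with the same exact p and adjusted p. In both pairs all 5 day 1 libraries lay below all day 0 libraries.

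None of the other 15 comparisons of pairs passed 0.05 after adjustment by the exact permutation test. The ratio of Atp6v0d2 to Atp6v0d1 differed by -0.27 at day 1 and 0.64 at day 3 from day 0, and that of Atp6v1g3 to Atp6v1g1 by 0.31 and -0.10. The ratio of Rhcg to Rhbg was 1.22 ± 0.07 at day 0 and -0.37 ± 0.87 at day 1, below all day 0 libraries in all 5, with a difference of -1.58 and an adjusted p of 0.0857 (exact permutation p = 0.0238). With 1 library left out, or within 1 format, no ratio passed after adjustment, where fewer arrangements of the libraries are possible.

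**Figure D3:**
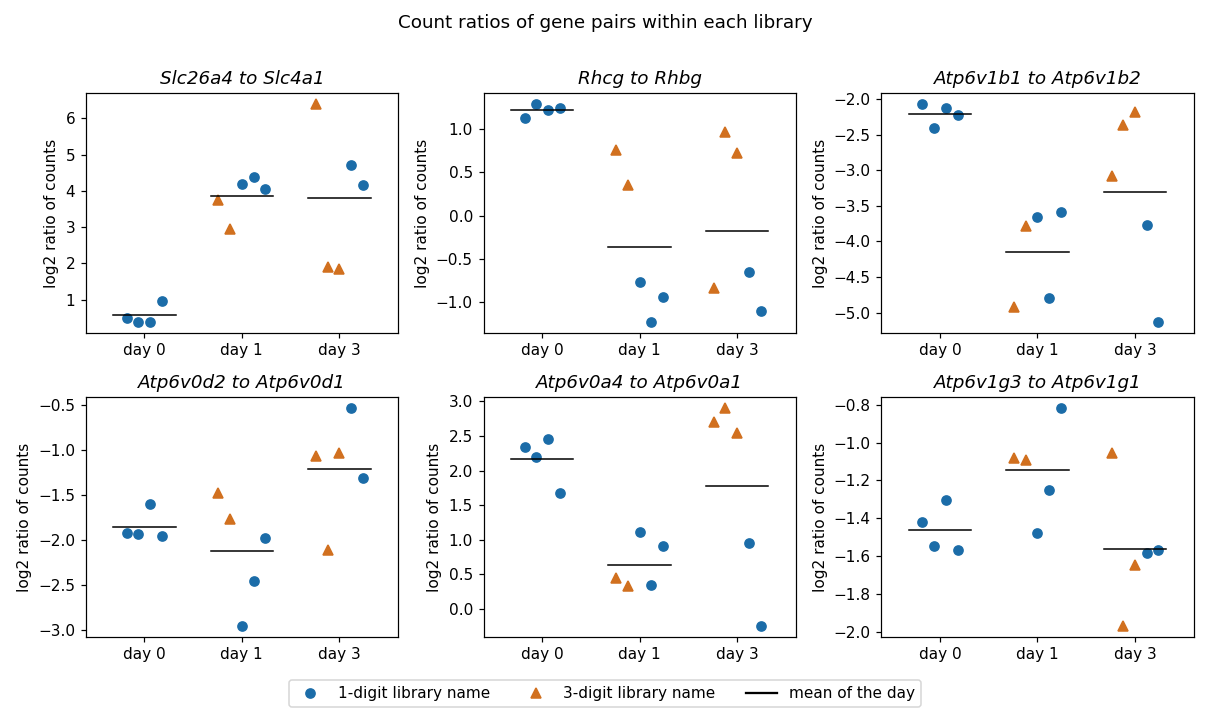
Log2 ratio of the counts of 2 genes in each library at day 0, day 1 and day 3, for 6 pairs, with circles for 1-digit and triangles for 3-digit library names and a line at the mean of the day. The ratio of Slc26a4 to Slc4a1 is below 1 in all day 0 libraries and between 2.95 and 4.39 in all day 1 libraries.

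The 2 formats of the library name gave different levels for several of the genes within a day. At day 1, 2 of the 10 genes were lower in 3-digit than in 1-digit libraries (Slc26a4 and Rhbg) and 0 higher, where 16.4% of all genes were lower and 18.6% higher (35% differed in either direction). Slc26a4 had 76.5 and 47.1 CPM in the 3-digit and 141, 143 and 173 CPM in the 1-digit day 1 libraries, a log2 difference of -1.30 ± 0.27 (adjusted p = 0.00319, edgeR's quasi-likelihood test). Against day 0, Slc26a4 rose in the 1-digit day 1 libraries by 0.83 ± 0.21 (adjusted p = 0.00490, edgeR's test), and in the 3-digit ones its log2 fold change was -0.47 ± 0.25 (adjusted p = 0.144). Rhbg differed by -0.70 ± 0.20 between formats (adjusted p = 0.0181, edgeR's test). Without day 1 replicate 2 the difference of Slc26a4 had an adjusted p of 0.0561, and that of Rhbg lost its call without day 1 replicate 1 or 3 (adjusted p up to 0.145).

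Genes of other cells differed by format at day 1 too, in both directions. The 8 genes of the distal convoluted and connecting tubule summed to 4913 to 5251 CPM in the 1-digit and to 2293 to 2867 CPM in the 3-digit day 1 libraries, with 4 of 8 lower and 1 higher in edgeR's test. The 8 urothelium genes summed to 5.59 to 11.4 CPM in the 1-digit and to 24.7 to 133 CPM in the 3-digit ones, with 4 of 8 higher and 0 lower. Of 20 further intercalated cell genes 5 were higher and 5 lower in the 3-digit ones. Of 9 principal cell genes, 3 were higher and 0 lower, where their sum was 838 to 911 CPM against 415 to 621 CPM. Of 7 genes of the proximal tubule, thick ascending limb and podocyte, 1 was higher and 3 lower, with a sum of 4094 to 5576 CPM against 9591 to 11746 CPM. Their part in the levels of Slc26a4 and Rhbg was not tested.

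At day 3, 3 of the 10 genes were higher in 3-digit than in 1-digit libraries (Rhcg, Atp6v1b1 and Foxi1) and 0 lower, where 10.3% of all genes were higher and 8.22% lower (18.5% differed in either direction). Rhcg had 10.8, 31.5 and 30.6 CPM in the 3-digit and 7.53 and 5.36 CPM in the 1-digit libraries, a log2 difference of 1.91 ± 0.42 (adjusted p = 0.0121, edgeR's quasi-likelihood test). Atp6v1b1 had 51.7, 77.6 and 63.5 CPM against 32.0 and 13.5 CPM, a difference of 1.49 ± 0.33 (adjusted p = 0.0127). Foxi1 differed by 0.78 ± 0.24 (adjusted p = 0.0403, edgeR's test). These calls were lost without day 3 replicate 5, which leaves 1 1-digit library of that day, and more of the 10 genes were called without day 3 replicate 1. How many of all genes were called in these fits was not compared, so a change of the members cannot be told from one of the whole test. The format difference at day 1 was lower than that at day 3 for 2 of the 10 genes (Atp6v1b1 and Rhbg) and higher for 0, where it was lower for 9.1% of all genes and higher for 8.45% (17.6% in either direction). DESeq2's Wald test called 3 lower and 0 higher at an adjusted p under 0.05.

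Other gene lists also differed by format at day 3, where 10.3% of all genes were higher in 3-digit libraries and 8.22% lower. Of 14 macrophage and osteoclast genes, 6 were higher and 2 lower, and the list summed to 357 to 558 CPM against 176 to 215 CPM in the 1-digit ones. The 7 genes of the proximal tubule, thick ascending limb and podocyte summed to 5608 to 10436 CPM against 3405 to 3537 CPM, with 3 higher and 0 lower, and of 20 further intercalated cell genes 9 were higher and 1 lower in edgeR's test. Of the 9 principal cell genes 2 were higher and 0 lower, of the 8 distal convoluted and connecting tubule genes 2 were higher and 2 lower, and of the 8 urothelium genes 0 were called, with a median of -0.85. Their part in the levels of Rhcg, Atp6v1b1 and Foxi1 was not tested.

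Day 3 replicate 1 had values unlike those of the other 3-digit libraries of that day for several genes, a description with no test. It had the lowest Slc4a1 of all 14 libraries (0.916 CPM against 12.0 and 11.1) and the highest Atp6v0a4 (669 CPM against 315 and 362), while its Foxi1 (34.3 CPM) lay within the day 0 range. Without it, Slc4a1 at day 3 against day 0 was at -2.97, Rhcg still was called in edgeR's test with an adjusted p of 0.00589, and Atp6v0a4 was at -0.05 in place of 0.29.

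The falls of Slc4a1 and Rhcg were called against day 0 within each format on both days in an edgeR fit of 5 day-by-format groups, as was that of Atp6v1b1 at day 1 and those of Foxi1 and Rhbg at day 3. The call of Foxi1 in 3-digit libraries was near the threshold in this fit (adjusted p = 0.0471) and, as given above, was lost when these libraries were fitted without the 1-digit ones of the later days. Counts in this fit differ from those with 1 format fitted alone, where more genes were called higher in 1-digit libraries. In 1-digit libraries 4 of the 10 genes were lower and 1 higher at day 1 (29.6% and 28.9% of all genes) and 6 lower and 0 higher at day 3 (25.1% and 28.6%). In 3-digit libraries 4 were lower and 0 higher at day 1 (19% and 22.6% of all genes) and 5 lower and 0 higher at day 3 (13.3% and 19.1%). For Slc4a1 the log2 fold changes were -2.82 and -3.30 at day 1 and -4.24 and -2.86 at day 3, in 1-digit and 3-digit libraries in turn. For Rhcg they were -2.51 and -1.74 at day 1 and -3.84 and -1.92 at day 3. Atp6v1b1 at day 3 was called in 1-digit libraries (-1.92, adjusted p = 0.000427, edgeR's quasi-likelihood test), and in 3-digit libraries its value was -0.43 (adjusted p = 0.235).

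**Figure D4:**
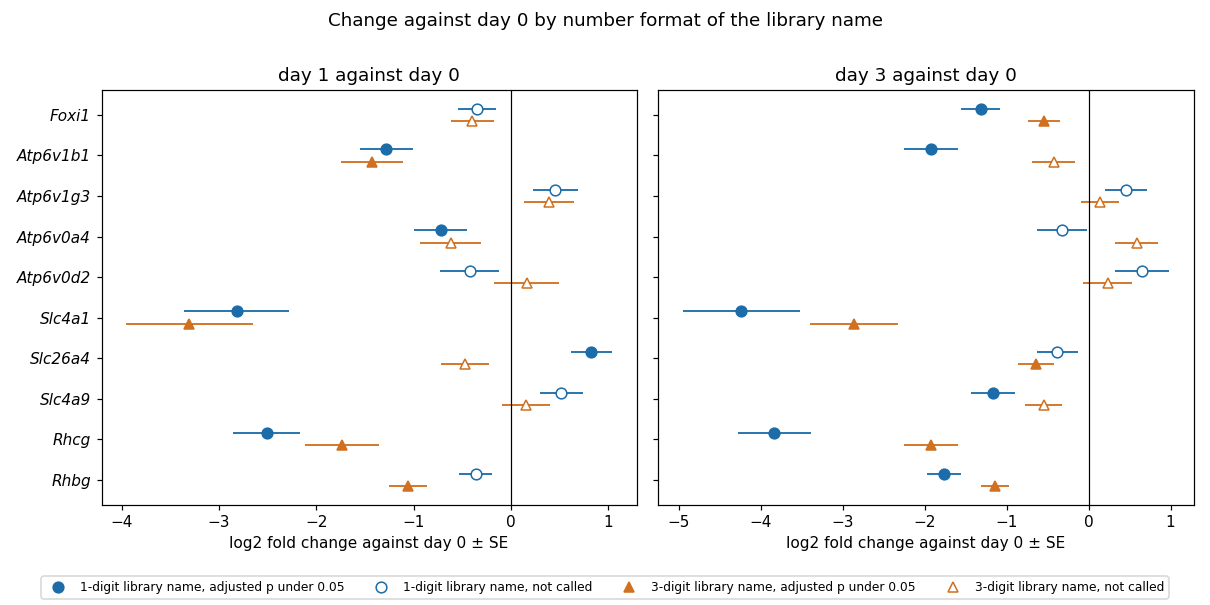
Log2 fold change ± SE against the 4 day 0 libraries of each gene in 1-digit (circles) and 3-digit (triangles) libraries of day 1 and of day 3, from 1 edgeR fit with 5 day-by-format groups, with filled symbols where the adjusted p was under 0.05. Slc26a4 at day 1 lies at 0.83 in 1-digit and at -0.47 in 3-digit libraries, and Slc4a1 lies at -2.82 or below in all.

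The other V-ATPase genes moved in both directions. Of 18 tested of 19 genes of this list, 4 were higher and 2 lower at day 1, and 1 was higher and 3 lower at day 3 (of all genes, 23.3% were higher and 18.7% lower at day 1 and 19.5% and 13.8% at day 3), with a median log2 fold change of 0.09 and -0.15. Within a format, 6 were higher and 2 lower in 1-digit and 3 higher and 5 lower in 3-digit day 1 libraries, and 4 were higher and 6 lower in 1-digit and 1 higher and 4 lower in 3-digit day 3 libraries. The shares of all genes in that fit were 28.9% higher and 29.6% lower in 1-digit and 22.6% and 19% in 3-digit day 1 libraries. At day 3 they were 28.6% and 25.1% in 1-digit and 19.1% and 13.3% in 3-digit libraries. Atp6v1b2, the B2 form found in most cells and the most abundant of them, rose from 398 ± 16.2 to 599 ± 119.6 CPM at day 1 (log2 fold change 0.59 ± 0.17, adjusted p = 0.0135, edgeR's quasi-likelihood test) and was at 406 ± 71.6 CPM at day 3. Atp6v1a, the catalytic subunit, fell at day 1 from 639.8 ± 48.8 to 340.1 ± 71.6 CPM (-0.91 ± 0.22, adjusted p = 0.00480, edgeR's test). Atp6v1e1 of the stalk had 264 ± 5.65, 244 ± 41.3 and 221 ± 27.8 CPM on the 3 days and was not called. Atp6v0a1, the partner of Atp6v0a4 above, had 66.0 ± 6.01 CPM at day 0 and 121 ± 29.1 at day 1 (0.88 ± 0.36, adjusted p = 0.0601, edgeR's test). Atp6v0d1 and Atp6v1g1 were not called on either day. Atp6v1c2, a form of the C subunit named here after its values were seen, fell on both days (-0.72 ± 0.14 and -1.03 ± 0.14, adjusted p = 0.00163 and 0.000223, edgeR's test).

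**Figure D5:**
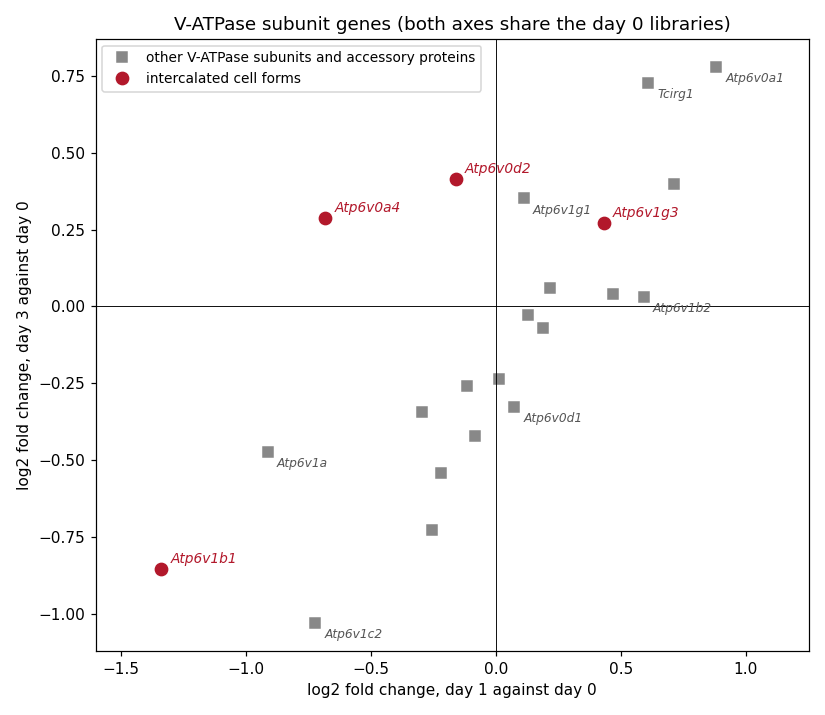
Log2 fold changes of the V-ATPase subunit genes at day 1 (x axis) and day 3 (y axis) against the same day 0 libraries, with the 4 intercalated cell forms as circles and the 18 other tested genes as squares. Atp6v1b1 lies lowest of all on the x axis at -1.34, and Atp6v1g3 lies above 0 on both axes.

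Of 20 further genes of intercalated cells, 6 were lower and 1 higher at day 1, and 6 lower and 1 higher at day 3, where 18.7% and 13.8% of all genes were lower. The count moved with the format: in 1-digit libraries 9 were lower at day 1 and 15 at day 3 (29.6% and 25.1% of all genes), and in 3-digit libraries 6 and 7 (19% and 13.3%), with 1 to 3 higher. Those called lower on both days were Slc26a7, Aqp6, Kit and P2ry14, named here after their values were seen, and Slc26a7, an anion exchanger of type A cells, had log2 fold changes of -3.28 and -3.09. The level of Slc26a7 was low, at 3.32 ± 0.388 CPM at day 0, 0.341 ± 0.259 at day 1 and 0.377 ± 0.211 at day 3. The most abundant of the list, carbonic anhydrase 2 (Car2), which supplies protons and bicarbonate to both cell types, had 558 ± 78.0, 628 ± 116 and 808 ± 251 CPM on the 3 days and was not called (log2 fold change 0.17 ± 0.23 and 0.53 ± 0.23). Tfcp2l1, a transcription factor of collecting duct cells, rose at day 3 to 604 ± 185 CPM from 354 ± 20.8 (0.77 ± 0.22, adjusted p = 0.0158, edgeR's quasi-likelihood test). Car12 had 375 ± 34.6, 219 ± 131 and 277 ± 155 CPM and was not called.

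The genes of the other distal nephron cells that were called on these days over all libraries were lower. Of all genes 18.7% were lower at day 1 and 13.8% at day 3, and 42.1% and 33.3% changed in either direction. Of 9 principal cell genes, 3 were lower at day 1 and 5 at day 3, and 0 were higher in edgeR's test, also at an unadjusted p under 0.05. The water channel Aqp2 had 462 ± 136, 316 ± 151 and 222 ± 133 CPM on the 3 days and was not called, while Aqp3 fell at day 3 (-0.78 ± 0.20, adjusted p = 0.00842) and Hsd11b2, which keeps cortisol and corticosterone from the mineralocorticoid receptor, fell on both days (-1.49 ± 0.40 and -1.57 ± 0.40, adjusted p = 0.00939 and 0.00922, edgeR's quasi-likelihood test). Of 8 genes of the distal convoluted and connecting tubule, 3 were lower at day 1 and 6 at day 3, and 0 were higher, again also at an unadjusted p under 0.05. Within a format, 2 of these 8 were higher and 3 lower in 1-digit and 0 higher and 5 lower in 3-digit day 1 libraries, and of the principal cell genes 0 were higher and 5 lower in 1-digit and 1 higher and 1 lower in 3-digit ones. At day 3, 1 of the 8 was higher and 7 lower in 1-digit and 0 higher and 6 lower in 3-digit libraries. Of the principal cell genes 0 were higher and 8 lower in 1-digit and 0 higher and 4 lower in 3-digit day 3 libraries. Of all genes in the fit by day and format, 28.9% were higher and 29.6% lower in 1-digit and 22.6% and 19% in 3-digit day 1 libraries. At day 3 the shares were 28.6% and 25.1% in 1-digit and 19.1% and 13.3% in 3-digit libraries. Klk1, the most abundant gene of the distal convoluted and connecting tubule list, was not called over all libraries, while Slc12a3, the thiazide-sensitive cotransporter, and S100g fell at day 3 (-1.73 ± 0.27 and -1.61 ± 0.39, adjusted p = 0.000446 and 0.00683, edgeR's test).

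Acid-base genes of the proximal tubule were called in small numbers over all libraries. Of 10, 0 were higher (1 at an unadjusted p under 0.05 in edgeR's test) and 1 lower at day 1, and 1 was higher and 2 lower at day 3. Of all genes 23.3% were higher and 18.7% lower at day 1, and 19.5% and 13.8% at day 3. In 1-digit libraries 0 were higher and 5 lower at day 1 and 1 higher and 4 lower at day 3, and in 3-digit libraries 1 was higher and 3 lower at day 1 and 4 higher and 2 lower at day 3, in edgeR's fit by day and format. In that fit the shares of all genes were larger too, at 28.9% higher and 29.6% lower in 1-digit day 1 libraries, 28.6% and 25.1% in 1-digit day 3, 22.6% and 19% in 3-digit day 1 and 19.1% and 13.3% in 3-digit day 3 libraries. Glud1, an enzyme of ammonia production from glutamate, rose at day 3 to 1143 ± 392 CPM from 565 ± 18.1 (1.02 ± 0.28, adjusted p = 0.0141, edgeR's quasi-likelihood test). Pck1 had 3425 ± 252, 2260.1 ± 1483 and 6549 ± 2947 CPM, and the basolateral bicarbonate cotransporter Slc4a4 had 949 ± 55.8, 661 ± 146 and 1292 ± 378 CPM, and neither was called.

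The likeness of 2 genes was measured as the root mean square difference of their standardised log2 CPM over the 14 libraries, which share their depth and scaling, and is given as a description. Among the 10 genes the closest pairs were Slc4a1 and Rhcg (0.452), Atp6v1b1 and Rhcg (0.545) and Foxi1 and Rhbg (0.556). Among 13316 other genes with a mean of at least 1 CPM, those nearest to Foxi1 were Kng2 (0.413), Dio1 (0.461) and Apoo (0.464). Nearest to Atp6v1b1 were Pnkd (0.203), Ptgr2 (0.214) and the potassium channel gene Kcnj16 (0.233), whose mean level went from 1631 ± 138 CPM at day 0 to 739 ± 207 at day 1 and 981 ± 497 at day 3. Nearest to Slc26a4 were Tor1a (0.352), Peli1 (0.370) and Cox4i1 (0.372), of which Cox4i1 had 882 ± 72.2, 996 ± 219 and 698 ± 88.4 CPM on the 3 days.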

How the data were processed

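Bulk RNA was measured in 14 libraries of mouse kidney. The authors trimmed the reads with Trimmomatic and aligned them with STAR to mm10, in versions not given in the sources used here. They deposited the raw count of reads with a unique place in the genome for each of 24411 gene symbols, unstranded and by strand. Here the strand column with 98.5% to 98.7% of strand-assigned reads was used. Rows that name no gene, 29.0% to 38.3% of a library, were left out of library sizes and tests. Groups came from the labels.

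R 4.3.3 and edgeR 4.0.16 were used. filterByExpr by day kept 14300 genes, libraries were scaled by TMM, and 1 coefficient per day was fitted to all 14 libraries and tested by quasi-likelihood, with Benjamini-Hochberg adjustment over all genes. Format effects came from 5 coefficients, 1 for every combination of day and format. The scripts were tested on simulated data. Log2 CPM used a prior count of 2, and ratios had 0.5 added to each count. Any 2 replicates differed by more than sampling noise, with a chi-square of 5.94 to 241 per degree of freedom.

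The members and the gene lists were chosen with earlier results of these data known. All 10 members are described, and other lists by their counts, with values for the 3 most abundant genes and the ratio partners. For Foxi1, Atp6v1b1 and Slc26a4 the 3 nearest other genes are named. A gene named outside this rule was chosen after its values were seen: Upk2, and those marked so.

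Alternatives changed the column (unstranded), the scaling (RLE, or total counts), the filter (none, or a minimum of 10 counts in each library), the tool (DESeq2 1.42.0), the libraries (the 2 days compared, 1 format, or 1 library left out), the terms (replicate block, format) and the number added in ratios (2).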

Additional observations from a re-analysis of the deposited data

Results flagged for a closer look

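Slc4a9 in day 1 replicate 2 was far from the other libraries of its day by Dixon's criterion (the gap to the nearest library over the range of the group), at a log2 CPM of 5.36 where the other 4 lay between 6.17 and 6.27. It was the 1 library past this criterion among 30 groups of a gene and a day, where chance gives about 1 in 20, or 1.5 groups.

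The difference between 3-digit and 1-digit library names was not the same at both days for a pair of genes, by a test of the difference itself in edgeR's quasi-likelihood fit. For Atp6v1b1 the difference was -0.15 at day 1 and 1.49 at day 3, and these differed by -1.64 (adjusted p = 0.0265), a call lost without day 1 replicate 1, 3 or 5 or day 3 replicate 5 (adjusted p up to 0.117). For Rhbg it was -0.70 at day 1 and 0.62 at day 3, and these differed by -1.32 (adjusted p = 0.00841 in edgeR's test), a call kept with any 1 library left out. Of all genes tested 9.1% were lower in this test.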

How the results depend on the processing

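The calls of Slc4a1 and Rhcg on both days, of Atp6v1b1 at day 1 and of Rhbg at day 3 held under every alternative run. Calls with an adjusted p near the threshold moved across it, and 12485579 to 20476979 reads per library leave the lowest member, Slc4a1 at day 3, at 18 reads. Where a value below changed direction or side, the cause was not tested, except that fewer libraries allow fewer exact arrangements.

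With total counts without TMM, 2 members changed between days 1 and 3, 1 differed by format at day 1 and 5 at day 3 (5 also in DESeq2's test), and the day 1 format differences of Atp6v1b1, Atp6v1g3 and Foxi1 turned to 0.071, 0.14 and 0.16. With only the 2 days compared, 1 member and 831 genes changed between days 1 and 3. With the format as a term, Atp6v0a4 at day 3 was at -0.067. This fit added calls for Atp6v1b1 at day 3 (-1.37, adjusted p = 0.0151) and for Slc26a4 (0.64, 0.0420) and Atp6v0a4 (-0.87, 0.0151) at day 1, and lost those of Rhbg at day 1 (adjusted p = 0.0511) and of Slc26a4 between days 1 and 3 (0.0582, edgeR's test).

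Same-numbered libraries did not deviate together in every pair (correlations from -0.17 to 0.26), so the numbers were not taken as pairing the libraries. With the replicate block, Rhbg at day 1 (-0.62, adjusted p = 0.0632) and Slc4a9 at day 3 (-0.79, adjusted p = 0.0535, edgeR's quasi-likelihood test) were no longer called, and no other member changed its call.

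With only 1-digit libraries of the later days, 7 members changed at day 1 (3 higher), 8 at day 3 (1 higher) and 7 between them, 8119 genes changed at day 3 and 5194 between days 1 and 3, Atp6v0a4 at day 3 was at -0.30, and Atp6v1b1 between days 1 and 3 at -0.65. Over all alternatives but leaving out 1 library, 5162 to 8839 genes changed at day 1, 3926 to 8119 at day 3 and 831 to 5194 between days 1 and 3. The ratio of Slc26a4 to Slc4a1 at day 1 was 3.65 higher, that of Atp6v1b1 to Atp6v1b2 differed by -1.80 at day 1, -2.24 at day 3 and -0.44 between days 1 and 3, that of Atp6v0a4 to Atp6v0a1 by -1.38, -1.81 and -0.44, and that of Atp6v0d2 to Atp6v0d1 by 1.54 between days 1 and 3.

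With only 3-digit ones, 3 members changed at day 3 and 2 between days 1 and 3, Atp6v0d2 and Slc26a4 at day 1 were at 0.16 and -0.47, and Slc4a1 between days 1 and 3 at 0.44. The number of all genes changed with only 3-digit libraries lay within the ranges given above. The ratio of Slc26a4 to Slc4a1 at day 1 was 2.78 higher, that of Rhcg to Rhbg differed by -0.66 at day 1, that of Atp6v1b1 to Atp6v1b2 by 1.82 between days 1 and 3, that of Atp6v0d2 to Atp6v0d1 by 0.23 at day 1 and 0.21 between days 1 and 3, and that of Atp6v0a4 to Atp6v0a1 by 0.54 at day 3 and 2.32 between days 1 and 3.

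In the 14 fits that each omit 1 library, the members changed numbered 3 to 5 at day 1, 4 to 7 at day 3 and 1 to 5 between days 1 and 3, where 1269 (without day 1 replicate 4) to 3350 (without day 1 replicate 2) genes changed. The members changed between days 1 and 3 moved by over 1.5 times without day 1 replicate 3, 4 or 5 or day 3 replicate 3 or 4, and the genes without day 1 replicate 3, 4 or 5 or day 3 replicate 1 or 3. Members that differed by format numbered 1 (without day 1 replicate 1 or 2) to 3 at day 1, 0 (without day 3 replicate 5) to 6 (without day 3 replicate 1) at day 3, and 1 (without day 1 replicate 3 or 5 or day 3 replicate 5) to 5 (without day 3 replicate 1) for the difference of both. How many of all genes differed by format in these fits was not compared with the members. The format call of Foxi1 at day 3 was lost in 7 of the 14 fits. Atp6v0a4 at day 3 ranged from -0.047 to 0.48 and Slc4a1 between days 1 and 3 from -0.66 to 0.021, both turning without day 3 replicate 1. Format differences at day 1 ranged from -0.51 to 0.12 (Atp6v1b1), -0.27 to 0.10 (Atp6v1g3), -0.14 to 0.31 (Atp6v0a4), -0.87 to 0.010 (Slc4a9) and -0.15 to 0.060 (Foxi1). For Atp6v1g3 that at day 3 ranged from -0.69 to 0.049 and the difference of both from -0.11 to 0.63. Called ratios at day 1 ranged from 3.17 to 3.53 (Slc26a4 to Slc4a1), -2.08 to -1.75 (Atp6v1b1 to Atp6v1b2) and -1.70 to -1.44 (Atp6v0a4 to Atp6v0a1). The last ranged from -0.68 to 0.10 at day 3, and between days 1 and 3 that of Slc26a4 to Slc4a1 from -0.71 to 0.42 and that of Rhcg to Rhbg from -0.10 to 0.47.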

Other observations

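Some genes of other segments and cell types were called on the same days. Of 7 genes of the proximal tubule, thick ascending limb and podocyte, 3 were lower at day 1 and 3 at day 3 in edgeR's quasi-likelihood test and 0 were higher, where 42.1% and 33.3% of all genes changed in either direction and 18.7% and 13.8% were lower. Umod fell on both days (log2 fold change -0.57 ± 0.21 and -1.32 ± 0.21, adjusted p = 0.0407 and 0.000559), as did the endocytic receptor gene Lrp2 (-2.15 ± 0.60 and -1.71 ± 0.59, adjusted p = 0.0107 and 0.0382), while the phosphate transporter gene Slc34a1 was not called (-0.56 ± 0.80 and -1.79 ± 0.81) and at day 1 had a mean of 4975 CPM in 1-digit and 609 CPM in 3-digit libraries. Within a format, 3 of these 7 were lower in 1-digit and 6 in 3-digit day 1 libraries (29.6% and 19% of all genes), and 5 in 1-digit and 3 in 3-digit day 3 libraries (25.1% and 13.3%). Among macrophage genes Lyz2 was called higher at day 3 over all libraries (2.00 ± 0.72, adjusted p = 0.0438, edgeR's test) and the receptor gene Csf1r fell on both days (-1.65 ± 0.24 and -1.86 ± 0.24, adjusted p = 0.000185 and 0.000123). At day 3 Lyz2 had 202 ± 87.0 CPM in 3-digit and 36.1 ± 14.8 CPM in 1-digit libraries, against 33.9 ± 17.9 CPM at day 0. Acp5 was not called on either day. Of 8 urothelium genes 0 changed at day 1 over all libraries in edgeR's test (0 also at an unadjusted p under 0.05) and 1, Upk2, was lower at day 3 (-4.44, adjusted p = 0.0233), and Krt5, Psca and Upk3b were not called. Within a format, 2 of the 8 were lower and 0 higher in 1-digit day 1 libraries (median log2 fold change -2.91, 29.6% of all genes lower). In 3-digit day 1 libraries 1 was higher and 0 lower (median 0.58, 22.6% of all genes higher). Atp6v0c, which encodes the proteolipid of the V0 sector found in all cells, was listed at 1 count or less in every library and was not tested.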
